A study of Arabidopsis thaliana with 30 samples.

Results

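Heat shock transcription factors (HSFs) are the regulators that bind heat shock elements in front of chaperone genes and switch those genes on or, in some cases, down. The 10 genes described here were taken by name from the deposited expression table, HSFA1A, HSFA1D, HSFA2, HSFA3, HSFA4A, HSFA6B, HSFA7A, HSFB1, HSFB2A and HSFB2B, and all 10 were found among its 20404 genes. The rule used gene names and no measured value. Of 11 further HSF genes listed for Arabidopsis thaliana, 7 were in the table. RNA was sequenced from seedlings of the Columbia background at an age of 7 days, as 3 replicate libraries in each of 10 groups, 30 libraries in all. The genotypes were wild type (Col), h2a.x-1 (X), h2a.w-2 (W), h2a.x/w-2 (XW) and tsk, each with a mock treatment and with methyl methanesulfonate (MMS), a chemical that alkylates DNA. H2A.X and H2A.W are variants of histone H2A, and TSK is TONSOKU, a repair protein of replication forks. The tissue label reads leaves although whole seedlings were harvested, the labels give neither dose nor duration of MMS, and nothing says that replicates came from separate plantings, so p-values measure the spread between these libraries only.

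In plants the HSF family is large and is divided into classes. Class A factors carry an activation domain. Among them the HSFA1 proteins are present before stress and start the response, while HSFA2, HSFA3 and HSFA7A are made during it and prolong or strengthen it. Class B factors lack that activation domain, and HSFB1 and HSFB2B are known as repressors that limit the heat-inducible HSFs. In unstressed cells HSP70 and HSP90 chaperones hold HSFA1 proteins inactive, which ties the amount of HSF activity to the need for protein folding.

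Library depth over the listed genes ran from 15343687 to 25115027 reads. The XW mock replicate 1 library stood further from its partners than any other replicate pair did (chi-square per degree of freedom 17.1 to 18.5, against at most 8.28 elsewhere). TSK transcripts were lower in libraries labelled tsk (53.2 ± 7.15 in mock, mean ± SD of 3 normalized counts, against 155 ± 7.13 in Col). In X the H2A.X gene HTA5 was low (191 ± 19 against 1040 ± 10.4) and its sister gene HTA3 was not called (514 ± 25.5 against 594 ± 38.2). Of the H2A.W genes HTA6 was lower in W mock (798 ± 35.9 against 1140 ± 38.5), while HTA7 was not called (log2 fold change -0.22) and HTA12 was higher (0.48). The H2A.X genes HTA3 (1.00) and HTA5 (0.61) were also higher in W mock. In XW mock 0 of these 5 genes were called lower, and HTA12 was called higher (0.45). HTA5 (916 ± 37.2, log2 fold change -0.18, adjusted p = 0.1) and HTA6 (-0.19, adjusted p = 0.081) had XW mock means below Col. With MMS, HTA6 (1.38), HTA7 (0.54), HTA3 (0.40) and HTA5 (0.23) were called higher in XW than in Col, and HTA12 was not called. These transcripts thus do not bear out the XW label, so W and XW below mean libraries labelled so. Leaf markers fell with MMS in all 5 genotypes (11 of 11 genes). Root markers were present despite the tissue label (10 of 11 in the table), and 6 of the 10 in W and 7 in the other genotypes fell with MMS. Of these 10 root markers 1 rose in Col, in W and in XW, and 0 rose in X and tsk. Of all tested genes 35.5% to 36.9% fell with MMS, depending on genotype. Every gene of the table had at least 1 read in each library, so detection in every group holds for any listed gene found there. Of the 12 seed markers 2 were in the table, and both were higher than in Col in tsk under both treatments and in XW with MMS, while 1 was higher in XW mock and 1 in X and W with MMS. The part of these markers in the results below was not tested. In bulk RNA, fewer cells of a type and less RNA per cell cannot be told apart.

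The stretches before the start sites of 3 of these genes are shown because HSFA2 and HSFA7A had the 2 largest rises with MMS in Col, and HSFB2A had the largest called difference of a mutant from Col without it. Each covers 300 bases upstream of the annotated start site in the TAIR10.1 genome, read 5′ to 3′ on the gene's strand. HSFA2 (AT2G26150) lies on chromosome 2 and its stretch is chr2:11135324-11135623 on the plus strand. HSFA7A (AT3G51910) lies on chromosome 3, with chr3:19264841-19265140 on the plus strand. HSFB2A (AT5G62020) lies on chromosome 5, with chr5:24915507-24915806 on the plus strand. Capitals mark letters of heat shock elements, that is GAANNTTCNNGAA and its parts GAANNTTC and TTCNNGAA, searched on both strands and allowed to overlap.
HSFA2: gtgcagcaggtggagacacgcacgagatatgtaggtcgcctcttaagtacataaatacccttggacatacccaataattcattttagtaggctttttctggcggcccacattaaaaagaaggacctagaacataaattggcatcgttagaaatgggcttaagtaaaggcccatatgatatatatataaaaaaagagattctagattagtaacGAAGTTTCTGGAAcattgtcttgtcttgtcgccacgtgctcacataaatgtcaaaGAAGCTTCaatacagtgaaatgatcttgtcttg
HSFA7A: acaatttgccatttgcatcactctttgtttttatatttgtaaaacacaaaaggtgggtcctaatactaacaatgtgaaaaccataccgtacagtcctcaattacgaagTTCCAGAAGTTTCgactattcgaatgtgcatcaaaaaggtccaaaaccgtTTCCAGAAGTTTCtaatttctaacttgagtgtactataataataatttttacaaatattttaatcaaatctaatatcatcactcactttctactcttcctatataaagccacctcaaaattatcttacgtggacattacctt
HSFB2A: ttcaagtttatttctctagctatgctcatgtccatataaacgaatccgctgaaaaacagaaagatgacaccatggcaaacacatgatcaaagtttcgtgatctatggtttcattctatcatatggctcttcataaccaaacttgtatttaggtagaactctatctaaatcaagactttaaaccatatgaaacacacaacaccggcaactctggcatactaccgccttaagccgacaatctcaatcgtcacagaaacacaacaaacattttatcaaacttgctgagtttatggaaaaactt
The element of 3 units was present in 0.485% of 27443 upstream stretches of this length and, among the 10 HSF genes, in HSFA2 and HSFA7A. In HSFA2 it read GAAGTTTCTGGAA, at positions -88 to -76 counted from the start site, and a further pair of units, GAAGCTTC, lay at -33 to -26. In HSFA7A the letters TTCCAGAAGTTTC occurred at 2 places, -192 to -180 and -142 to -130. The shorter GAANNTTC was found in 11.5% of stretches and also in HSFA4A, and TTCNNGAA in 9.38%. The letters CTTNNNNNNNAAG, bound by the DNA damage regulator SOG1, were in 11.4% of stretches and in none of the 10. The dehydration-responsive element, ACCGAC or GCCGAC, was in 8.24% and in HSFA1A and HSFB2A, and the G-box CACGTG was in 7.09% and in HSFA2. These matches describe letters and say nothing of binding.

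Levels between genes were compared as RPKM, reads per kilobase of annotated exon scaled to the library total. In Col mock HSFB1 had the highest level of the 10 (27.2 ± 3.22, SD, n = 3), followed by HSFA7A (12.7 ± 0.668) and HSFA1D (7.83 ± 0.327). HSFB2B (6.01), HSFA4A (5.57), HSFB2A (5.55), HSFA1A (4.65) and HSFA3 (2.39) came next. HSFA2 (1.76 ± 0.251) and HSFA6B (0.989 ± 0.209) were lowest, above 16.5% and 9.99% of the listed genes. With MMS the order changed. HSFB1 stayed highest (54.1 ± 3.87), and HSFA7A (38.1 ± 1.95) and HSFA2 (24.8 ± 7.02, above 75.1% of genes) came next.

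**Figure D1:**
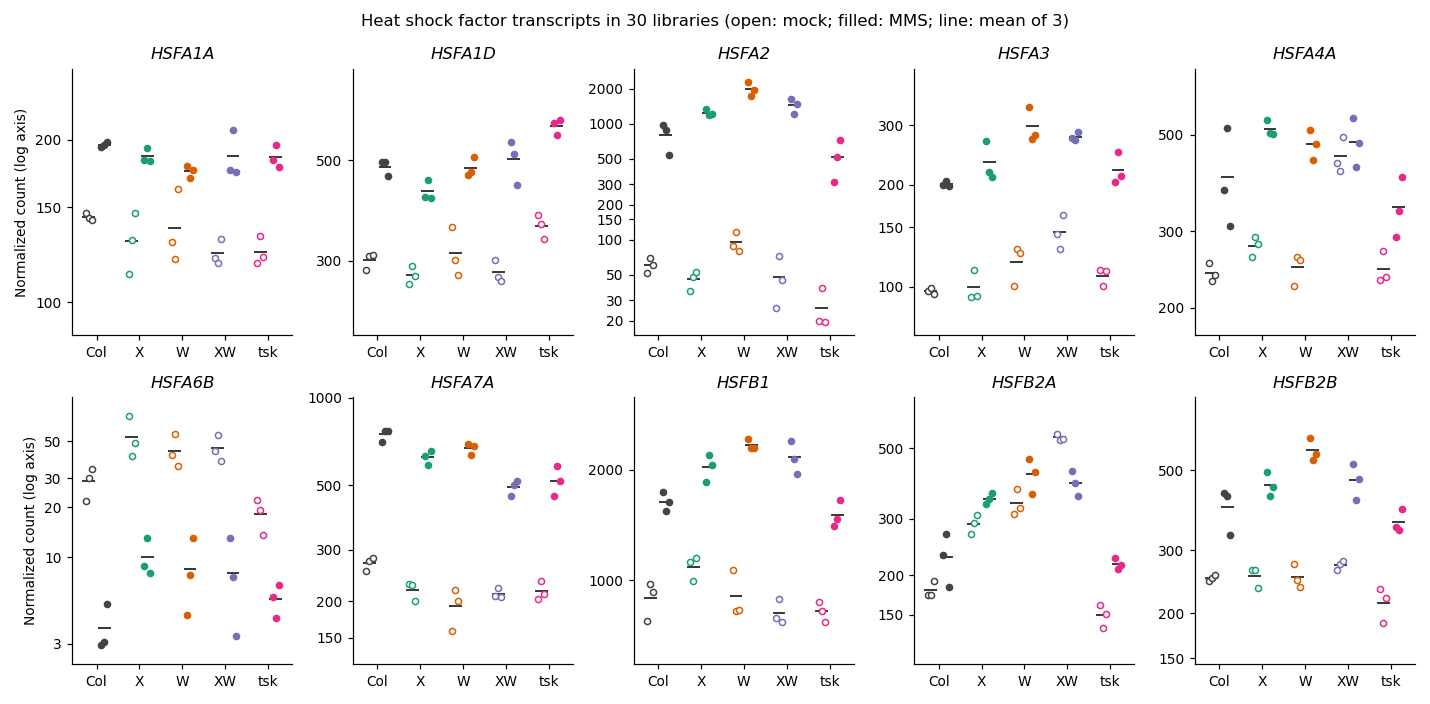
Normalized count of each of the 10 HSF genes in all 30 libraries, on a log axis that differs between panels. Open circles are mock and filled circles MMS libraries, and lines are means of 3. HSFA2 lies at or below 116 in each mock library and at or above 312 in each MMS library, whereas HSFA6B falls and HSFB2A in XW is lower with MMS than without.

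MMS was compared with mock in each genotype to ask how HSF transcripts respond to DNA alkylation. In Col 9 of the 10 genes rose and HSFA6B fell, against a background in which 35.5% of 20256 tested genes were called higher and 35.6% lower. The same 9 rose and HSFA6B fell in X, W and tsk, with backgrounds of 36.3%, 36.1% and 35.5% higher and 36.9%, 36.8% and 35.6% lower. In XW 7 rose, HSFA6B and HSFB2A fell and HSFA4A was not called (36.2% higher and 35.5% lower in the background). The median log2 fold change of the 10 was 0.69 in Col, 0.87 in X, 1.05 in W, 0.80 in XW and 0.74 in tsk, while that of all tested genes lay between -0.0049 and 0.0121. A call here is a Benjamini-Hochberg (BH) adjusted p under 0.05 in limma, and fold changes are on the log2(normalized count + 1) scale.

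HSFA2, the heat-inducible factor that sustains chaperone expression after heat, changed most. Its normalized counts in Col were 52.0, 69.1 and 61.0 in mock and 965, 880.1 and 532 with MMS. In X they were 36.5, 47.3 and 53.0 in mock and 1324, 1176 and 1205 with MMS. In W they were 88.0, 116 and 80.0 in mock and 2293, 1729 and 1951 with MMS. Mock and MMS libraries were far apart in these 3 genotypes, with W highest under both treatments. In XW the counts were 25.6, 71.7 and 45.0 in mock and 1625, 1221 and 1480 with MMS. In tsk they were 20.03, 38.4 and 19.5 in mock and 312, 514 and 730 with MMS. Here too each MMS library exceeded each mock library, and tsk had the lowest mean under both treatments. The ratio of means was 13.1-fold in Col, 27.1-fold in X, 21-fold in W, 30.4-fold in XW and 20-fold in tsk. The log2 fold change was 3.65 in Col (SE 0.29, adjusted p = 4.1e-12), 4.74 in X, 4.39 in W, 5.005 in XW and 4.25 in tsk.

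HSFA7A and HSFA3 rose in every genotype with no overlap between mock and MMS libraries. HSFA7A, a heat-induced factor related to HSFA2, had 254, 275 and 283 normalized counts in Col mock and 705, 772 and 771 in Col MMS, a 2.77-fold rise (log2 fold change 1.47, SE 0.10, adjusted p = 5.9e-14). Its log2 fold change was 1.51 in X, 1.81 in W, 1.21 in XW and 1.25 in tsk. HSFA3, which in heat and drought is switched on by the transcription factor DREB2A, rose from 97.4, 99.3 and 94.96 to 199, 206 and 198 in Col (log2 fold change 1.04, SE 0.11, adjusted p = 3.9e-09). It rose by 1.21 in X, 1.32 in W, 0.93 in XW and 1.03 in tsk on the same scale. HSFA3 shares 11 exon bases with the gene AT5G03710 on the other strand, 0.498% of its exon length.

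The HSFA1 genes, whose proteins are the master activators of the heat response, rose by less. HSFA1A had 146, 143 and 142 normalized counts in Col mock and 194, 195 and 198 in Col MMS, a 1.36-fold rise (log2 fold change 0.44, SE 0.10, adjusted p = 0.00039). HSFA1D went from 286, 307 and 310 to 495, 496 and 461, a 1.61-fold rise (0.68, SE 0.08, adjusted p = 2.4e-08). Both rose in each genotype without overlap, by log2 fold changes of 0.36 in W to 0.59 in XW for HSFA1A and of 0.61 in X to 0.82 in XW for HSFA1D. Across the 10 groups HSFA1A had the narrowest span of the members, 1.59-fold between its lowest and highest group mean, against 76.6-fold for HSFA2.

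HSFA4A, a factor linked to responses to reactive oxygen, rose in 4 genotypes. In Col it had 253, 231 and 238 normalized counts in mock and 374, 519 and 309 with MMS, a wide spread with no overlap (log2 fold change 0.70, SE 0.13, adjusted p = 2.2e-05). It rose by 0.89 in X, 0.94 in W and 0.47 in tsk on the log2 scale. In XW its counts were 431, 413 and 495 in mock and 547, 422 and 478 with MMS. These overlapped, and the log2 fold change of 0.11 (SE 0.13, adjusted p = 0.46) was not called.

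HSFA6B, a factor associated with abscisic acid signalling, was the 1 member that fell in every genotype. In Col it had 22.0, 30.2 and 34.0 normalized counts in mock and 2.95, 3.07 and 5.21 with MMS (log2 fold change -2.66, SE 0.36, adjusted p = 1.5e-07). Its log2 fold change was -2.30 in X, -2.32 in W, -2.51 in XW and -1.54 in tsk, with no overlap in any of the 5. The gene was weakly expressed throughout, with 3 to 62 reads per library, so its values carry more counting error than those of the others.

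Among class B genes, HSFB1 and HSFB2B rose in every genotype without overlap. HSFB1 had 773, 973 and 930 normalized counts in Col mock and 1737, 1539 and 1635 in Col MMS (log2 fold change 0.88, SE 0.10, adjusted p = 3.1e-09). It rose by 0.90 in X, 1.38 in W, 1.40 in XW and 0.87 in tsk. HSFB2B rose from 246, 250.3 and 256 to 433, 425 and 332 in Col (0.65, SE 0.10, adjusted p = 1.5e-06), and by 0.84 in X, 1.17 in W, 0.77 in XW and 0.75 in tsk. HSFB2B shares 22.4% of its exon bases with opposite-strand genes, AT4G11670 and AT4G05910, and the strand used in counting is not given in the sources used here, so reads of these genes cannot be told apart. AT4G11670 itself rose by 0.39 in Col and 0.33 in W.

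HSFB2A, a close relative of HSFB2B, did not follow one direction. In Col it had 173, 174 and 191 normalized counts in mock and 232, 268 and 183 with MMS, which overlap (log2 fold change 0.33, SE 0.11, adjusted p = 0.0077). It rose in X (0.26, adjusted p = 0.028), in W (0.30, adjusted p = 0.015) and in tsk (0.53, adjusted p = 6.7e-05). In XW it fell, from 555, 532 and 536 to 426, 389 and 355, with all MMS libraries below all mock libraries (-0.48, SE 0.11, adjusted p = 0.00026). The calls in Col, X and W depended on single libraries. In Col the call was lost without Col MMS replicate 2 (0.20, adjusted p = 0.10). In X it was lost without X mock replicate 1 or 2 or X MMS replicate 2 or 3 (0.21 to 0.27), and in W without W mock replicate 1 (0.24) or W MMS replicate 1 (0.21). An antisense RNA of HSFB2A is known, and reads from the 2 strands cannot be told apart here.

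**Figure D2:**
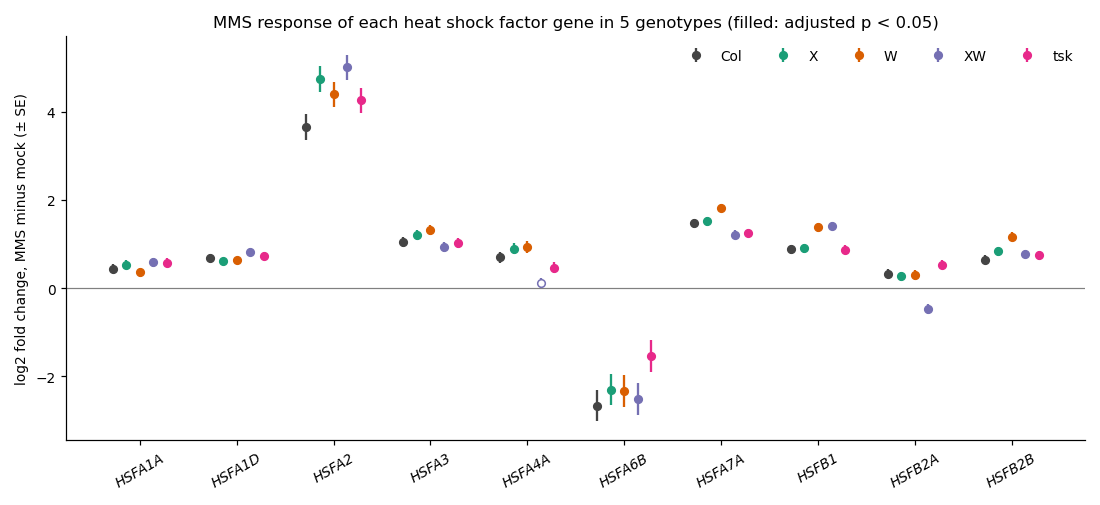
Log2 fold change of MMS against mock with its standard error (vertical axis) for each HSF gene (horizontal axis) in Col, X, W, XW and tsk, with 3 libraries a group. Filled points have an adjusted p under 0.05. HSFA2 rises by 3.65 to 5.005, HSFA6B falls in all 5 genotypes, and HSFB2A in XW lies below 0 while its other points lie above.

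Each mutant was compared with Col without MMS to ask which HSF transcripts the genotypes change in undamaged seedlings. HSFB2A was higher in X, W and XW, and HSFA7A was lower in all 4 mutants. In X 1 member was higher and 1 lower, against a background of 4.29% of tested genes higher and 3.2% lower. In W the counts were again 1 and 1 (6.05% and 7.08%). In XW 3 were higher and 1 lower (11.8% and 13.5%), and in tsk 1 was higher and 2 lower (10.9% and 15.1%). The 4 comparisons share the same Col mock libraries. The median log2 fold change of the 10 was 0.03 in X, 0.04 in W, 0.01 in XW and -0.22 in tsk, beside 0.0026, -0.0034, -0.0189 and -0.0390 over all tested genes.

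HSFB2A mock counts were 173, 174 and 191 in Col and 269, 290.3 and 308 in X. They were 311, 373 and 326 in W, 555, 532 and 536 in XW, and 161, 137 and 151 in tsk. X, W and XW libraries all lay above Col, each group above the one before it without overlap, and tsk libraries lay below Col. HSFB2A was 1.61-fold higher in X (log2 fold change 0.69, SE 0.11, adjusted p = 9.2e-05), 1.88-fold in W (0.90, adjusted p = 7e-07) and 3.02-fold in XW (1.59, adjusted p = 2.4e-12). In tsk the log2 difference was -0.26 (adjusted p = 0.072), not called. The difference of XW from tsk was 1.85 (SE 0.11, adjusted p = 6.5e-14).

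Markers of touch and wounding were also higher in X, W and XW, and 4 of them were higher in tsk, where HSFB2A was below Col. Of the 12 such genes 11 were higher in X mock, 10 in W, 11 in XW and 4 in tsk than in Col, with median log2 fold changes of 1.18, 1.21, 2.40 and 0.25. Their summed normalized count ran from 2548 to 2662 in Col mock, from 5585 to 6927 in X, from 4650 to 7155 in W, from 12590 to 16110 in XW and from 2696 to 3498 in tsk. ZAT10, a rapidly induced zinc finger gene, was higher by 2.69 in X, 2.90 in W, 3.99 in XW and 1.33 in tsk on the log2 scale. All 12 had reads in every group, as did every gene of the table. Their part in the HSFB2A result was not tested. HSFA8, an HSF outside the 10, was likewise higher in X (145 ± 3.21 against 105 ± 8.17 in Col, log2 fold change 0.47), W (0.85), XW (1.53, adjusted p = 1.3e-11) and tsk (0.45).

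HSFA7A mock counts were 254, 275 and 283 in Col. They were 229, 227 and 200.1 in X, 158, 218 and 200 in W, 208, 221 and 207 in XW, and 203, 235 and 212 in tsk. Every mutant library lay below every Col library. The log2 fold change was -0.31 in X (SE 0.10, adjusted p = 0.045), -0.50 in W (adjusted p = 0.00052), -0.35 in XW (adjusted p = 0.0072) and -0.32 in tsk (adjusted p = 0.013). The X call was lost when any 1 of the 6 libraries was left out (-0.24 to -0.35) and in edgeR (-0.31, adjusted p = 0.051), DESeq2 (-0.30, adjusted p = 0.062) and FPKM (-0.26, adjusted p = 0.07). The tsk call was lost with FPKM (-0.20, adjusted p = 0.095) and without Col mock replicate 3 (-0.29, adjusted p = 0.057) or tsk mock replicate 1 (-0.28, adjusted p = 0.067).

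In XW mock HSFA4A was higher as well, 431, 413 and 495 normalized counts against 253, 231 and 238 in Col (log2 fold change 0.89, SE 0.13, adjusted p = 7.4e-06). HSFA3 was also higher there, 144, 129 and 163 against 97.4, 99.3 and 94.96 (0.57, SE 0.11, adjusted p = 0.0005). Neither overlapped with Col, and neither gene was called in the other 3 mutants. The HSFA4A level in XW mock was in the range of the Col, X, W and XW libraries with MMS (308.6 to 547). It lay above all tsk libraries with MMS (292 to 399).

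In tsk mock HSFA2 was lower, 20.03, 38.4 and 19.5 normalized counts against 52.0, 69.1 and 61.0 in Col, without overlap (log2 fold change -1.25, SE 0.29, adjusted p = 0.0018). With edgeR on the recovered reads it was not called (-1.21, adjusted p = 0.06). HSFA1D was 1.19-fold higher in tsk (359 ± 22.2 against 301 ± 12.8, log2 fold change 0.25, SE 0.08, adjusted p = 0.026). Its call was lost without Col mock replicate 1 (0.21, adjusted p = 0.11), tsk mock replicate 1 (0.21, adjusted p = 0.12) or tsk mock replicate 2 (0.24, adjusted p = 0.067).

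**Figure D3:**
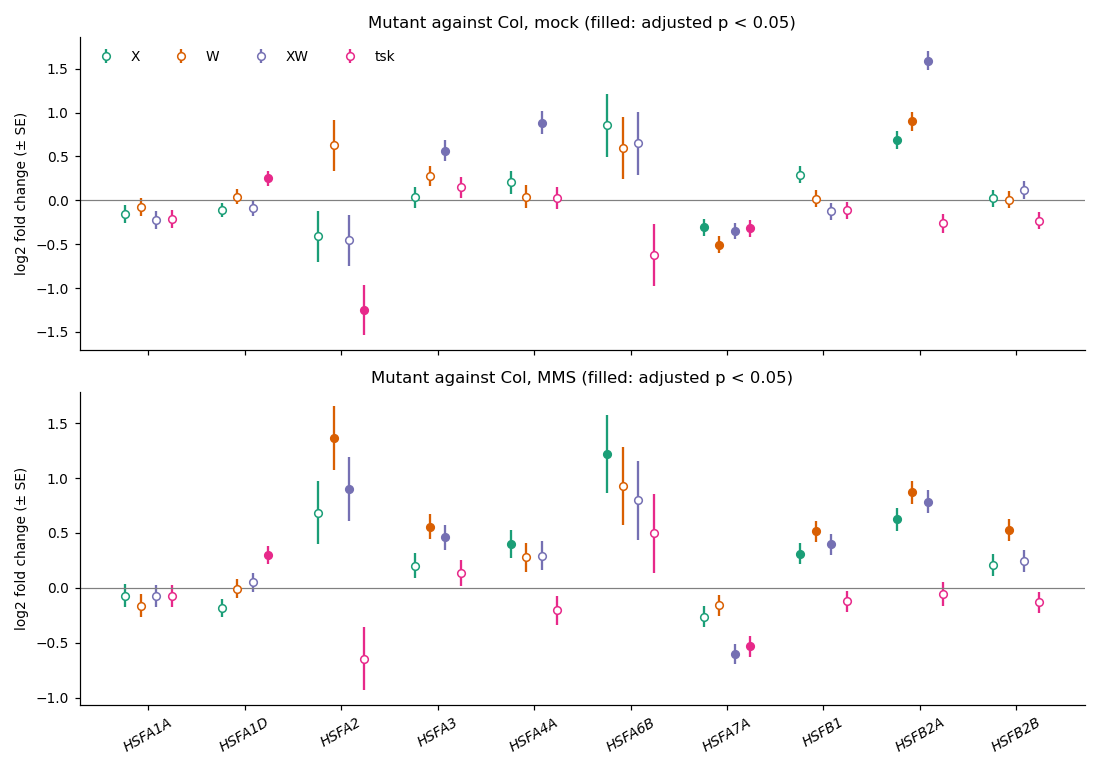
Log2 fold change of each mutant against Col with its standard error (vertical axis) for each HSF gene (horizontal axis), in mock (top) and MMS (bottom), with 3 libraries a group. Filled points have an adjusted p under 0.05. In mock HSFB2A stands at 0.69, 0.90 and 1.59 in X, W and XW, and with MMS HSFA2 stands at 1.36 in W and -0.65 in tsk, the last not called.

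With MMS, each mutant was again compared with Col. HSFB2A and HSFB1 were higher in X, W and XW, and HSFA2 and HSFA3 were higher in W and XW. In X 4 members were higher and 0 lower at an adjusted p under 0.05 in limma (6.46% of tested genes higher, 4.5% lower). In W 5 were higher and 0 lower (7.75% and 3.93%). In XW 4 were higher and 1 lower (12.8% and 12.5%), and in tsk 1 was higher and 1 lower (12.8% and 17.5%). At an unadjusted p under 0.05 the members numbered 8 in X, 7 in W, 8 in XW and 3 in tsk. The share of all tested genes at that unadjusted threshold was not computed. The median log2 fold change of the 10 was 0.26 in X, 0.52 in W, 0.35 in XW and -0.10 in tsk, beside 0.0044, 0.0061, -0.0049 and -0.0297 over all tested genes. The 4 comparisons share the Col MMS libraries. Of the 11 leaf markers 7 were higher than in Col in X, 8 in W, 4 in XW and 1 in tsk, and 1 was lower in X and in tsk. Of the 12 touch and wounding markers 3 were higher in X, 6 in W, 7 in XW and 5 in tsk, and 0 were lower. Their part in these results was not tested.

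HSFA2 with MMS reached 965, 880.1 and 532 normalized counts in Col, and all W (1729 to 2293) and all XW (1221 to 1625) libraries lay above these. It was 2.51-fold higher in W (log2 fold change 1.36, SE 0.29, adjusted p = 0.0019) and 1.82-fold higher in XW (0.90, SE 0.29, adjusted p = 0.021). The XW call was lost without Col MMS replicate 3 (0.64, adjusted p = 0.15), XW MMS replicate 1 (0.81, adjusted p = 0.079) or XW MMS replicate 3 (0.88, adjusted p = 0.058). In X the libraries also lay above Col (1176 to 1324), at 0.68 (adjusted p = 0.13), not called in limma and called in edgeR (0.64, adjusted p = 0.037). In tsk they overlapped with Col (-0.65, adjusted p = 0.09), and the difference was called lower in edgeR (-0.57, adjusted p = 0.035), without Col MMS replicate 3 (-0.91) and without tsk MMS replicate 3 (-0.93).

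HSFA3 was higher in W MMS (339, 273 and 280.1 against 199, 206 and 198 in Col, log2 fold change 0.56, SE 0.11, adjusted p = 0.0016). The same held for XW MMS (274, 271 and 286, 0.46, adjusted p = 0.0035). HSFA7A was lower in XW MMS (459, 503 and 518 against 705, 772 and 771, -0.60, SE 0.10, adjusted p = 2.3e-05) and in tsk MMS (461, 582 and 516, -0.53, adjusted p = 8.1e-05). None of these groups overlapped with Col. HSFA7A libraries of X MMS (633, 588 and 654) and W MMS (692, 637 and 684) also lay below Col, without a call in limma. The X difference was called lower in edgeR (-0.26, adjusted p = 0.04) and DESeq2 (-0.26, adjusted p = 0.037). It was also called with FPKM (-0.29, adjusted p = 0.031) and with the compared groups alone (-0.26, adjusted p = 0.029). HSFA1D stayed 1.23-fold higher in tsk with MMS (596 ± 24.4 against 484 ± 20.2, 0.30, SE 0.08, adjusted p = 0.0068).

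HSFB2A with MMS had 232, 268 and 183 normalized counts in Col, 334, 346 and 362 in X, 463, 358 and 422 in W, 426, 389 and 355 in XW and 226, 208 and 215 in tsk. X, W and XW lay above Col and overlapped with one another. The log2 fold change was 0.62 in X (SE 0.11, adjusted p = 0.00024), 0.87 in W (adjusted p = 2.3e-06), 0.78 in XW (adjusted p = 3e-06) and -0.06 in tsk (adjusted p = 0.73). HSFB1 was higher by 0.31 in X (adjusted p = 0.034), 0.51 in W (adjusted p = 0.00054) and 0.40 in XW (adjusted p = 0.0027), with all those libraries (1852 to 2421) above those of Col (1539 to 1737). HSFB2B was 1.43-fold higher in W (0.53, SE 0.10, adjusted p = 0.00067), where AT4G11670 stood at -0.11 (adjusted p = 0.35).

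In X MMS the calls of HSFB1, HSFA4A (log2 fold change 0.40, adjusted p = 0.044) and HSFA6B (1.22, adjusted p = 0.025) depended on single libraries and on the method. HSFA4A was lost without Col MMS replicate 1 or 3 or any X MMS replicate (0.23 to 0.42), and in edgeR (0.37, adjusted p = 0.061) and DESeq2 (0.37, adjusted p = 0.06). It was also lost with FPKM (0.35, adjusted p = 0.062), the compared groups alone (0.40, adjusted p = 0.12) and a replicate block (0.40, adjusted p = 0.053). HSFA6B was lost without Col MMS replicate 1 or 2 or X MMS replicate 2 (1.02 to 1.12), in edgeR (1.39, adjusted p = 0.1), in DESeq2 (1.42, adjusted p = 0.092) and with a pseudocount of 5 (0.77, adjusted p = 0.055). It was also lost with FPKM (0.17, adjusted p = 0.27) and the compared groups alone (1.22, adjusted p = 0.083). The FPKM fit used log2(FPKM + 1), and HSFA6B had at most 0.30 FPKM in these libraries. The added 1 shrinks the HSFA6B fold change on that scale, so 0.17 cannot be set against the other values. HSFB1 was lost without Col MMS replicate 2 or 3 or X MMS replicate 2 or 3 (0.25 to 0.31), and with FPKM (0.27, adjusted p = 0.074). HSFB2A was called in X MMS with each of the 6 libraries left out.

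The difference between a mutant's MMS response and that of Col was tested as an interaction term. It was called for 4 members in XW, higher for HSFA2 and HSFB1 and lower for HSFA4A and HSFB2A, against a background of 3.85% of tested genes higher and 5.07% lower. In W it was called higher for HSFB1 and HSFB2B (4.4% higher, 2.62% lower). In X and in tsk 0 of the 10 were called in limma (1.08% and 1.37% of tested genes higher, 0.908% and 1.13% lower). Each had 1 member at an unadjusted p under 0.05, a threshold for which no share over all tested genes was computed. For X and tsk edgeR and DESeq2 also called 0, and the fit of the compared groups alone called HSFA2 in X (1.096, adjusted p = 0.023).

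HSFB2A had the difference with the smallest adjusted p, a response lower by 0.81 on the log2 scale in XW than in Col (SE 0.15, adjusted p = 0.00068), a fall of 0.48 against a rise of 0.33. Its mock level in XW (532 to 555) was the highest of the 10 groups, above all other libraries. Of the 12 touch and wounding markers 9 had a lower response in XW than in Col (median -1.81), 5 in X and 4 in W, where the HSFB2A response differed from that of Col by -0.06 and -0.03 (not called). In XW itself 5 of the 12 rose with MMS and 5 fell (median 0.06). The part of that list in the difference was not tested. HSFB1 had a larger rise in XW by 0.52 (SE 0.14, adjusted p = 0.013) and in W by 0.50 (SE 0.14, adjusted p = 0.023). HSFB2B rose more in W by 0.52 (SE 0.14, adjusted p = 0.023), while AT4G11670, which overlaps it, stood at -0.06 (adjusted p = 0.8). HSFA8 had responses lower by 0.83 in W (adjusted p = 0.0014) and by 0.99 in XW (adjusted p = 8.1e-05).

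The HSFA2 response was larger in XW by 1.36 (SE 0.41, adjusted p = 0.034) and the HSFA4A response smaller by 0.59 (log2 difference -0.59, SE 0.18, adjusted p = 0.04). The HSFA2 term was not called in edgeR (1.22, adjusted p = 0.096) or DESeq2 (1.22, adjusted p = 0.061), nor with the compared groups alone (1.36, adjusted p = 0.059). It was also lost without XW mock replicate 1, the library that stood apart (0.98, adjusted p = 0.12), and without Col mock replicate 2 or 3, Col MMS replicate 3 or XW MMS replicate 1 or 3 (1.09 to 1.35). The HSFA4A term was lost with the compared groups alone (-0.59, adjusted p = 0.12) and without Col mock replicate 2 or 3, XW mock replicate 3, Col MMS replicate 1 or 2 or XW MMS replicate 2 or 3 (-0.39 to -0.62). The W terms were lost for HSFB1 with FPKM (0.43, adjusted p = 0.056) and without Col mock replicate 2 or 3, W mock replicate 2 or 3, Col MMS replicate 2 or W MMS replicate 1 (0.43 to 0.47), and for HSFB2B without Col mock replicate 3, W mock replicate 3, Col MMS replicate 3 or W MMS replicate 1 (0.39 to 0.50).

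XW was compared directly with tsk because the study concerns recruitment of TSK by both histone variants. In mock 6 members were higher in XW and HSFA1D was lower (16.8% of tested genes higher, 12.9% lower). With MMS 6 were higher and HSFA1D was again lower (16.4% and 11.7%). The median log2 difference of the 10 was 0.39 in mock and 0.35 with MMS, beside 0.0163 and 0.0286 over all tested genes. HSFA2 with MMS was 2.78-fold higher in XW (1221 to 1625 against 312 to 730, log2 difference 1.55, SE 0.29, adjusted p = 0.00015). HSFA4A was higher by 0.86 in mock (adjusted p = 7.9e-06) and 0.50 with MMS (adjusted p = 0.0042), HSFB2A by 0.84 with MMS (adjusted p = 7e-07) and HSFB1 by 0.52 with MMS (adjusted p = 0.00014). HSFA6B was higher in mock (45.4 ± 8.45 against 18.3 ± 4.29, 1.27, SE 0.36, adjusted p = 0.0077). HSFA2 in mock (0.79, adjusted p = 0.037) had overlapping libraries and was not called in edgeR (0.86, adjusted p = 0.2) or DESeq2 (0.87, adjusted p = 0.053), nor with FPKM (0.37, adjusted p = 0.21), with the compared groups alone (0.79, adjusted p = 0.16) or without XW mock replicate 2 or 3 or tsk mock replicate 1 or 3 (0.44 to 0.77). 3 other calls also rested on single libraries. HSFB2B in mock (0.35) was lost without tsk mock replicate 2 (0.26), HSFA1D with MMS (-0.25) without XW MMS replicate 3 or tsk MMS replicate 1 or 3 (-0.16 to -0.24), and HSFA3 with MMS (0.33) without any XW MMS replicate or tsk MMS replicate 1 or 3 (0.27 to 0.34) and with FPKM (0.20, adjusted p = 0.076).

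The 7 other HSF genes in the table moved both ways with MMS. In Col 5 rose and HSFB4 and HSFC1 fell. HSFC1, of the plant class C, fell by 1.75 in Col and by 2.02 in XW on the log2 scale, and HSFA1E rose by 1.26 in Col and by 1.18 in XW. The median of the 7 was 0.59 in Col, 0.50 in X, 0.49 in W, 0.18 in XW and 0.55 in tsk. In each genotype 2 fell, and the number that rose was 5 in Col, X and tsk, 4 in W and 3 in XW. Of all tested genes 35.5% to 36.3% rose and 35.5% to 36.9% fell, depending on genotype.

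The list of HSF regulators covers factors that switch HSF genes on and chaperones that bind HSF proteins. In Col 11 of 12 rose with MMS and HSBP, whose product binds HSFs and dampens them, was lower (log2 fold change -0.27, adjusted p = 0.02). In X, W, XW and tsk 11 rose as well, with medians of 0.84, 0.81, 1.15 and 0.60 beside 0.72 in Col. Of all tested genes 35.5% to 36.3% rose, depending on genotype. ROF2, a heat-induced immunophilin that binds HSFA2 through HSP90, rose by 3.65 in Col (SE 0.19, adjusted p = 3.5e-16), 4.15 in W and 3.90 in XW. DREB2A, the activator of HSFA3, rose by 1.83 in Col and 2.77 in W, and the difference between these was called (0.94, SE 0.21, adjusted p = 0.005), as was that of XW from Col (0.85, adjusted p = 0.0079). MBF1C, a heat-induced coactivator, likewise responded more in W (0.99, adjusted p = 0.00064) and XW (0.84, adjusted p = 0.0018). In mock, 5 of the 12 were lower than in Col in tsk, 4 in XW, 2 in X and 0 in W, and 1 was higher in tsk, 0 in XW, 1 in X and 2 in W. Of all tested genes 15.1%, 13.5%, 3.2% and 7.08% were lower in that order, and 10.9%, 11.8%, 4.29% and 6.05% higher. With MMS 5 of the 12 were lower in tsk, 2 in X and 0 in W and XW, and 0 were higher in tsk, 3 in X and 5 in W and XW. Of all tested genes 17.5%, 4.5%, 3.93% and 12.5% were then lower in tsk, X, W and XW, and 12.8%, 6.46%, 7.75% and 12.8% higher. HSC70-1 was lower in tsk by log2 fold changes of -0.56 in mock and -0.66 with MMS, and stood at -0.40 in XW mock and -0.32 in X mock. HSP90-3 was lower in tsk by -0.50 and -0.60. DREB2C, related to DREB2A, was the member that was higher in tsk mock (0.79, adjusted p = 0.0048).

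**Figure D4:**
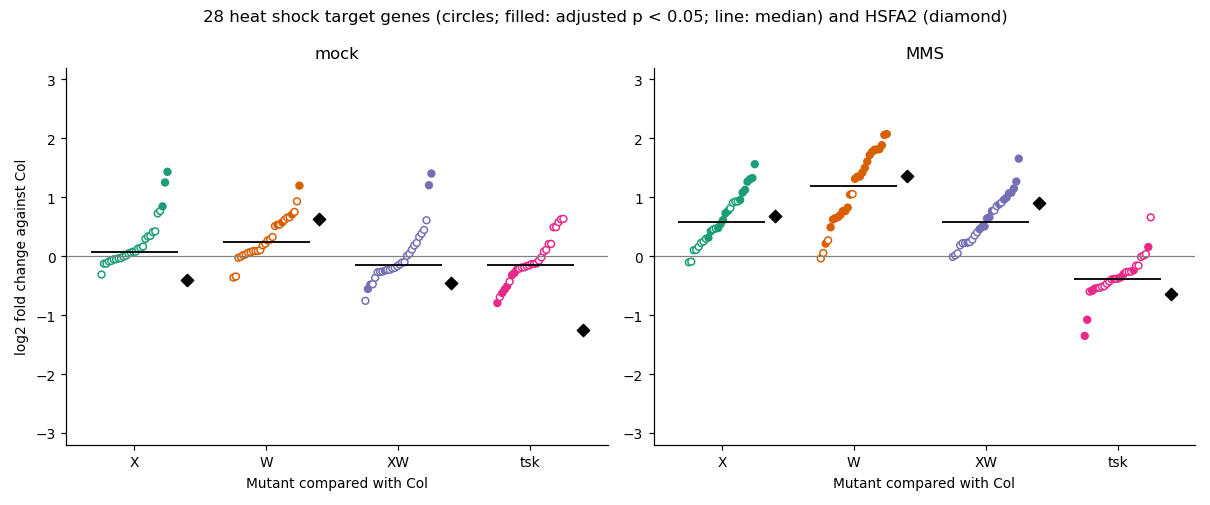
Log2 fold change against Col (vertical axis) of 28 heat shock target genes in X, W, XW and tsk (horizontal axis), in mock (left) and with MMS (right), with 3 libraries a group. Circles are genes, filled where the adjusted p was under 0.05, lines are medians and diamonds are HSFA2. With MMS the medians are 0.58, 1.18, 0.57 and -0.38, and the W circles lie highest.

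Of the 31 heat shock target genes listed, 28 were in the table, mostly chaperones and small heat shock proteins. With MMS 25 rose in Col, 25 in X, 28 in W, 25 in XW and 25 in tsk, with medians of 2.53, 2.96, 3.25, 3.29 and 2.57. Of all tested genes 35.5% to 36.3% rose, depending on genotype. HSP17.8, a cytosolic small heat shock protein, rose from 35.2 ± 16.3 to 1600 ± 473 normalized counts in Col (log2 fold change 5.51, SE 0.25, adjusted p = 2.5e-17). HSP23.5, a small heat shock protein, rose by 4.20 in Col, and HSP101, the disaggregase needed for survival of heat, by 3.05. CLPB3, of the chloroplast, fell in Col (-0.35) and tsk (-0.30).

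Against Col with MMS, 14 of the 28 targets were higher in X, 24 in W and 15 in XW with 0 lower, and in tsk 1 was higher and 10 were lower. The medians were 0.58, 1.18, 0.57 and -0.38. Of all tested genes 6.46%, 7.75%, 12.8% and 12.8% were higher in X, W, XW and tsk, and 4.5%, 3.93%, 12.5% and 17.5% lower. Without MMS 3 targets were higher in X, 4 in W, 2 higher and 3 lower in XW, and 7 lower in tsk, with medians of 0.08, 0.24, -0.16 and -0.15. Of all tested genes 4.29%, 6.05%, 11.8% and 10.9% were then higher, and 3.2%, 7.08%, 13.5% and 15.1% lower. HSP70-5 had 6730 ± 905 normalized counts in W MMS against 1690 ± 669 in Col MMS (log2 fold change 2.06, SE 0.21, adjusted p = 1.4e-07). BAG6, a calmodulin-binding cochaperone gene, was higher by 1.304 in X, 1.88 in W and 1.27 in XW. HSP23.5 (-1.08, adjusted p = 1.1e-05) and the cochaperone gene J3 (-0.54, adjusted p = 1.4e-07) were lower in tsk. As interaction terms, 10 targets responded more in W than in Col (4.4% of tested genes), 9 in XW (3.85%) and 3 in X (1.08%). In tsk 0 responded more (1.37% of tested genes) and HSP23.6 responded less (-1.98, adjusted p = 0.05 after rounding, 1.13% of tested genes lower). XW with MMS exceeded tsk in 24 of 28 (median 1.03), against 16.4% of tested genes.

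Over the 10 group means of log2(normalized count + 1), the gene most like HSFA2 was AT3G12050 (Pearson r 0.996), then Hop2 (0.996), a cochaperone gene, and J2 (0.994). For HSFB1 it was DREB2A (0.992), for HSFA7A HAC5 (0.996), for HSFA1A AT3G17450 (0.994), for HSFA1D AT1G69280 (0.994), for HSFA3 AT1G80040 (0.994), for HSFB2B AT1G55530 (0.993), for HSFA6B AT4G27435 (0.988) and for HSFA4A AT5G58375 (0.984). HSFB2A had the weakest best match, AT3G03880 (0.945). Among the members, HSFA2 and HSFB2B had an r of 0.974 and HSFA2 and HSFB1 of 0.970, while HSFB2A and HSFA1A had 0.057. These values describe 10 points that share the contrast of mock and MMS libraries.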

How the data were processed

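The deposited tables hold 20404 genes in 30 libraries. Reads were aligned with STAR to TAIR10 and normalized with DESeq2 1.30.1, per the submitters' processing notes. The authors deposited a signal table, in which reads are scaled by a size factor per library (normalized counts here), and an FPKM table. Values of the signal table were whole multiples of 1 read in 100% of cases (tolerance 0.01 of a read), so reads were recovered. Lengths implied by the deposited FPKM did not follow annotated exon lengths (Spearman -0.002 over 20404 genes), so FPKM served only as an alternative, and levels between genes were computed from recovered reads and TAIR10.1 exons.

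The plan named limma for normalized values and edgeR if the table held raw counts. Because the values are normalized, limma 3.58.1 in R 4.3.3 was fitted on log2(normalized count + 1). The model had 10 group coefficients, a trend and 20 residual degrees of freedom. Genes at 10 or more in at least 3 libraries were tested (20256; 148 removed), with BH adjustment within each of 19 comparisons and a threshold of 0.05. Alternatives were edgeR 4.0.16, DESeq2 1.42.0, FPKM as log2(FPKM + 1), pseudocounts of 0.5 and 5 and other filters. Further alternatives were the compared groups alone, a replicate block and leaving out each library. At low FPKM, as for HSFA6B and for HSFA2 in mock, the added 1 shrinks fold changes. The fit was also run on simulated counts in which few genes changed, in tsk mock only, unlike the MMS comparisons. Its outcome is not given here. The members and gene lists were chosen with earlier results of these data known. Named were all members, from each list at most 3 called genes per comparison by smallest adjusted p, genes overlapping a member and the genes most like each member; HSBP, HSFB4, DREB2A in XW against Col, CLPB3, HSP101 in Col and HSFA8 in some comparisons were named after their values were seen.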

Additional observations from a re-analysis of the deposited data

Results flagged for a closer look

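For 6 results the MMS response of a mutant differed from that of Col by the test of the interaction term in limma. In XW the differences on the log2 scale were 1.36 for HSFA2 (adjusted p = 0.034), -0.59 for HSFA4A (adjusted p = 0.04), 0.52 for HSFB1 (adjusted p = 0.013) and -0.81 for HSFB2A (adjusted p = 0.00068; -0.8050 to 4 decimals). In W they were 0.50 for HSFB1 (adjusted p = 0.023) and 0.52 for HSFB2B (adjusted p = 0.023). The HSFB2A difference was called under each alternative and with each library left out. Values of single genes were not tested for a library lying far from its group of 3. Whole libraries were compared by the chi-square values given above.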

How the results depend on the processing

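Over 39 settings, 3090 values for single genes were recomputed. Of these 2966 kept their side of the threshold, 95 lost the call and 29 gained one. Of values called in either fit 0 changed sign, while 67 uncalled in both did, with differences of at most 0.36 as reported. The count of called members against Col in X mock was 4 instead of 2 with the compared groups alone, that of the X interaction 1 instead of 0 and that of the XW interaction 2 instead of 4. With FPKM, 2 instead of 4 were called in X MMS and 1 instead of 2 in the W interaction. With 1 library left out the counts ran from 1 to 2 in X mock, 1 to 3 in tsk mock, 1 to 3 in X MMS, 2 to 4 in tsk MMS, 0 to 2 in the W interaction and 2 to 4 in the XW interaction. In tsk MMS, HSFA2 and HSFA4A were gained without Col MMS replicate 3. HSFA6B in X mock was gained in edgeR (0.91), DESeq2 (0.91), FPKM (0.41) and the compared groups alone (0.86). The cause was not tested. No other scaling moved the median of all genes by over 0.1.

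Same-numbered libraries did not deviate together (correlation of deviations -0.201 to 0.122, median 0.00135, over 135 pairs), so these values showed no pairing by number. Whether same-numbered libraries were grown or handled together cannot be told from this. The replicate block left the counts of called members as they were except in X MMS, 3 instead of 4, where HSFA4A was lost (0.40, adjusted p = 0.053). Depth limits HSFA6B most, at 3 to 62 reads per library.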
